A study of Sus scrofa with 63 samples.

Results

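CYP2E1, CYP2A19 and CYP2B22 are porcine cytochromes P450 of family CYP2. They were taken by gene name from the annotation of the array, where each of the 3 genes had exactly 1 probe-set among 6765 gene symbols and 23935 probe-sets that are no control. The mRNA was measured in liver of German Landrace offspring, all of gilts fed a gestational high protein diet (HP offspring). The stages were 94 days post conception (dpc) with 16 animals, 1 day post natum (dpn) with 16, 28 dpn with 15 and 188 dpn with 16, and each of the 63 animals had 1 Affymetrix array. Offspring of gilts on the adequate protein diet were not analysed here, so each comparison is one of age within HP offspring. By the methods of the study, fetuses at 94 dpc came from an experiment separate from the postnatal one and were recovered by Caesarean section. Light and heavy siblings were taken at 94 dpc and 1 dpn, piglets kept for the later stages were raised by foster sows, and males were castrated. Pigs of 28 and 188 dpn were fasted and stunned before bleeding, and the younger animals were killed by injection. Age therefore cannot be told apart from the experiment at any postnatal stage against 94 dpc. Nor can it be from killing method, fasting, fostering and choice by weight at 28 or 188 dpn against 94 dpc or 1 dpn. Between any stages age cannot be told apart from feeding. The animals were sib pairs, and neither litter nor sex is in the labels, so p-values measure the spread between animals as if they were independent.

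Cytochromes P450 are haem enzymes of the endoplasmic reticulum that insert an oxygen atom into lipophilic compounds, using electrons passed on by the reductase POR, and the products are then conjugated by sulfotransferases and glucuronosyltransferases. CYP2E1 oxidises ethanol, solvents, ketone bodies and fatty acids. In pigs, CYP2E1 and CYP2A19 clear skatole, a bacterial product of tryptophan that together with the testicular steroid androstenone gives boar odour to fat. CYP2B22 is a porcine member of CYP2B, a subfamily known in humans and rodents for its induction by phenobarbital through the nuclear receptor CAR.

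The 3 genes rose most in different periods. On the log2 scale CYP2E1 had the larger part of its rise before 1 dpn, and CYP2A19 after 1 dpn with a further rise at 188 dpn. CYP2B22 was near background through 28 dpn and had its largest rise between 28 and 188 dpn. A smaller rise of CYP2B22 by 1 dpn (1.15) was called in a fit without a filter on level, and its mean was lower again at 28 dpn. Between 188 dpn and 94 dpc the log2 signal rose by 6.66 for CYP2E1 (SE 0.22, adjusted p = 2.75e-23), by 8.82 for CYP2A19 (SE 0.25, adjusted p = 2.22e-25) and by 3.50 for CYP2B22 (SE 0.35, adjusted p = 7.37e-11), which is 101-fold, 453-fold and 11.3-fold in the deposited signals. At 94 dpc the mean of CYP2A19 was 0.27 above background and that of CYP2B22 −0.28 relative to it, so their folds and ranks against that stage depend on how low a signal the arrays can give. All 188 dpn animals lay above all 94 dpc animals for each of the 3 genes. How many of all probe-sets have stages that lie fully apart was not counted, here or for the stages below. Such a separation is therefore not read as particular to these genes. Of all 13377 probe-sets tested between 188 dpn and 94 dpc 80.1% were called and 27% rose, so that a call by itself sets the genes little apart. By size, the rises of CYP2A19, CYP2E1 and CYP2B22 took places 8, 18 and 123 among the tested probe-sets. A call here and below is an adjusted p under 0.05 from limma, with Benjamini-Hochberg adjustment over all probe-sets tested, and SE is the standard error of the log2 difference.

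**Figure D1:**
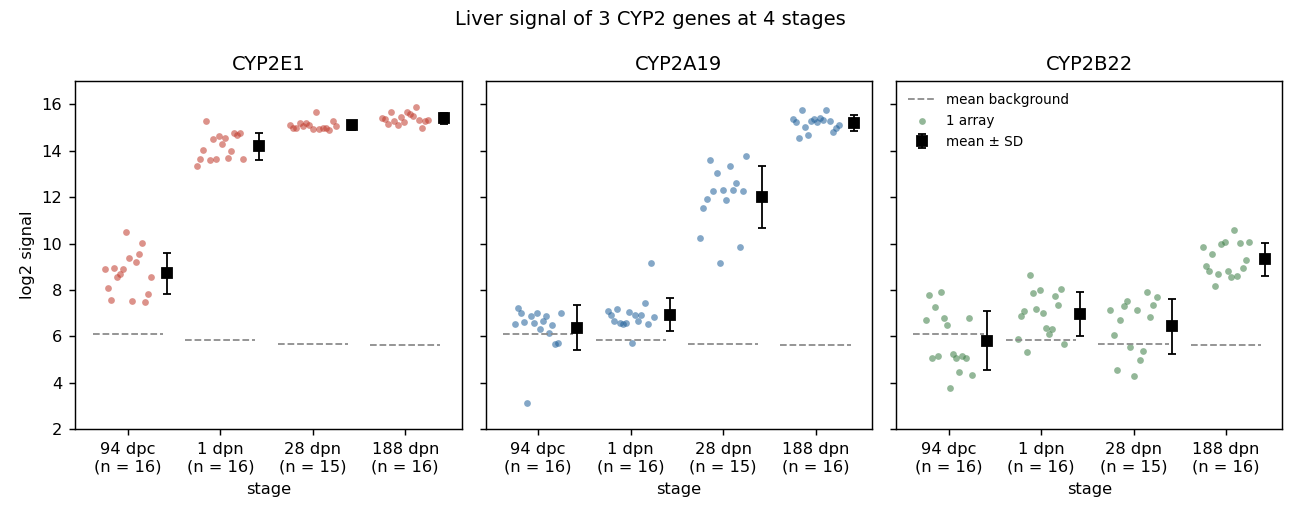
Log2 signal of CYP2E1, CYP2A19 and CYP2B22 (1 panel each) at the 4 stages. Coloured points are single arrays, black squares with bars are the mean ± SD, and dashed lines are the mean background of the stage. The largest step of CYP2E1 is from 94 dpc to 1 dpn, that of CYP2A19 from 1 to 28 dpn and that of CYP2B22 from 28 to 188 dpn.

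The arrays carried the marks of hepatocytes at each stage. The 16 hepatocyte markers measured, such as albumin (ALB) and transferrin (TF), averaged a log2 signal of 15.6, 15.4, 15.3 and 15.3 at 94 dpc, 1 dpn, 28 dpn and 188 dpn. Red cell precursor markers, of which 8 were on the array, averaged 10.5 at 94 dpc and 7.67, 7.66 and 7.34 at the later stages. At 1 dpn against 94 dpc (period I) 7 of 7 tested fell, where 34% of all tested probe-sets fell. The 9 macrophage markers averaged 10.0 at 94 dpc and 10.5, 11.7 and 10.8 later. In bulk liver, fewer cells of a type and less RNA per cell cannot be told apart, and the part of these shifts in the changes of the CYP2 genes was not tested. Background was the level below which 95% of 23 control probe-sets with no RNA to bind lay on an array, and averaged 6.10, 5.83, 5.65 and 5.64. The 3′ minus 5′ difference of RNAs added before labelling averaged 0.86, 1.89, 2.70 and 2.10. Array 6 of 94 dpc stood apart, with a correlation of 0.895 to the other fetuses (0.925 to 0.94 on the remaining arrays) and a macrophage mean of 6.83 (9.75 on the next lowest). Without it the changes of CYP2E1, CYP2A19 and CYP2B22 between 188 dpn and 94 dpc were 6.66, 8.86 and 3.64.

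CYP2E1 was already well above background in the fetus. At 94 dpc its log2 signal was 7.48 on the lowest array, 8.78 at the median and 10.49 on the highest, and 16 of 16 arrays were above background. At 1 dpn the lowest, median and highest arrays had 13.33, 14.15 and 15.30. All newborns thus lay above all fetuses. The change in period I, 1 dpn against 94 dpc, was 5.45 (SE 0.25, adjusted p = 4.31e-18) or 43.8-fold, with means of 14.18 ± 0.57 at 1 dpn and 8.73 ± 0.89 at 94 dpc (SD, n = 16 each). This was the 11th largest rise of the 12839 probe-sets tested in period I, of which 56.9% were called, 22.9% rose and 34% fell. Of the total rise of CYP2E1 on the log2 scale, 81.8% had been reached at 1 dpn and 95.6% at 28 dpn. On the linear scale of 2 to the power of the stage means these shares were 42.7% and 81.3%.

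After birth CYP2E1 rose little and its spread between animals narrowed. The lowest, median and highest arrays had 14.91, 15.07 and 15.67 at 28 dpn, and 14.99, 15.35 and 15.90 at 188 dpn. Neighbouring stages overlapped in both later periods. The mean was 15.10 ± 0.19 at 28 dpn (SD, n = 15), against 14.18 ± 0.57 at 1 dpn, a rise of 0.91 (SE 0.15, adjusted p = 3.25e-06) in period II. In period III, 188 dpn against 28 dpn, the mean was 15.39 ± 0.23 (n = 16) against 15.10, a rise of 0.30 (SE 0.08, adjusted p = 0.00484) or 1.23-fold. That small rise was not called when all 63 arrays shared 1 estimate of the spread (adjusted p = 0.26), and was 0.16 after quantile normalization. At 28 and 188 dpn CYP2E1 exceeded at least 99.6% of the probe-sets of its array, where the mean of the array maxima was 15.78 at 28 dpn and 15.92 at 188 dpn, so signals there had little room above them.

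CYP2A19 was close to background around birth. Its lowest, median and highest log2 signals were 3.14, 6.60 and 7.21 at 94 dpc, with 12 of 16 arrays above background. At 1 dpn they were 5.73, 6.88 and 9.18, with 15 of 16 arrays above background. The 2 stages overlapped widely, apart from array 31 of 1 dpn at 9.18, where the next highest newborn had 7.46. CYP2A19 did not pass the level filter in period I, which asked for a signal over the array median in 50% or more of the animals of either stage. In a fit of all 23935 probe-sets without that filter the change was 0.56 (SE 0.29, 95% interval −0.04 to 1.16, adjusted p = 0.146), which was not called. It was called after quantile normalization (0.75, adjusted p = 0.0491).

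The first rise of CYP2A19 that was called in the deposited values came between 1 and 28 dpn. A smaller rise by 1 dpn is not excluded by the interval of period I. At 28 dpn its lowest, median and highest log2 signals were 9.18, 12.28 and 13.77, a 24.1-fold range of linear signal between 15 piglets of the same age. Besides array 39 at 9.18, arrays 45 and 33 had 9.87 and 10.22, and the other 12 piglets had between 11.52 and 13.77. At 188 dpn the lowest, median and highest were 14.56, 15.25 and 15.75, a 2.28-fold range, where CYP2A19 exceeded between 99.2% and 99.8% of the probe-sets of its array and the mean array maximum was 15.92. All animals of 188 dpn lay above all of 28 dpn, and those of 28 dpn above all of 1 dpn but array 31.

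In period II CYP2A19 averaged 12.00 ± 1.34 at 28 dpn against 6.93 ± 0.71 at 1 dpn (SD, n = 15 and 16), a change of 5.07 (SE 0.36, adjusted p = 1.24e-13) or 33.7-fold. It was the 8th largest rise of 13078 probe-sets tested, of which 71.7% were called, 28.8% rose and 42.9% fell. In period III the mean was 15.19 ± 0.33 at 188 dpn against 12.00 at 28 dpn, a further rise of 3.19 (SE 0.33, adjusted p = 4.05e-09) or 9.12-fold. Only 4 of the 12418 probe-sets tested in period III rose by more, and 34.7% were called, 12.3% rose and 22.5% fell. Of its total log2 rise 6.35% was present at 1 dpn and 63.9% at 28 dpn, and of its linear rise 0.105% and 10.8%. Set directly against 1 dpn, the level at 188 dpn was higher by 8.26 (SE 0.19, adjusted p = 1.57e-27), the largest rise of 13248 probe-sets tested between these stages, of which 73.6% were called and 27.6% rose. Its mean at 1 dpn was 1.1 above background, and it exceeded the array median on 3 of 16 arrays there. CYP2A19 thus entered the tests of period II and of 188 dpn against 1 dpn only through the later stage, where it was high. No support is drawn from its calls and ranks in them.

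CYP2B22 had the weakest signal of the 3 probe-sets at 188 dpn, which is no comparison of transcript amounts because probe-sets differ in their response. Its lowest, median and highest log2 signals were 3.77, 5.20 and 7.92 at 94 dpc and 5.31, 7.06 and 8.62 at 1 dpn. At 28 dpn they were 4.28, 6.84 and 7.90. These stages overlapped, and 7 of 16, 14 of 16 and 9 of 15 arrays were above background. At 188 dpn the lowest, median and highest were 8.17, 9.18 and 10.57, and all 16 arrays were above background and above every 28 dpn and 94 dpc array, while the range of 1 dpn reached into that of 188 dpn.

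The change of CYP2B22 in period I could be fitted only without the level filter. It was 1.15 (SE 0.39, 95% interval 0.36 to 1.94, adjusted p = 0.0203), and 34.9% of the 23935 probe-sets were called in that fit and 13.2% rose. Means were 6.97 ± 0.95 at 1 dpn and 5.82 ± 1.28 at 94 dpc (SD, n = 16 each). In period II the change was −0.54 (SE 0.37, 95% interval −1.29 to 0.21, adjusted p = 0.19), which was not called. In period III the mean was 9.32 ± 0.71 at 188 dpn against 6.43 ± 1.20 at 28 dpn (SD, n = 16 and 15), a rise of 2.89 (SE 0.33, adjusted p = 3.24e-08) or 7.40-fold and the 10th largest of that period. As 9 of 15 arrays of 28 dpn were above background, with the mean 0.78 over it, that fold also depends on the floor of the arrays. Of the total log2 rise of CYP2B22 32.9% was present at 1 dpn and 17.5% at 28 dpn, and of its linear rise 11.8% and 5.14%. The levels in ascending order were thus 94 dpc, 28 dpn, 1 dpn and 188 dpn. Of the neighbours in this order, 28 dpn against 94 dpc (0.61, SE 0.43, adjusted p = 0.184) and 28 dpn against 1 dpn were not called. The difference of 188 dpn against 1 dpn was called (2.35, SE 0.28, adjusted p = 6.64e-09). At 1 dpn CYP2B22 exceeded the array median on 7 of 16 arrays, so it entered that test only through 188 dpn. The difference between 28 dpn and 94 dpc was called after quantile normalization (1.19, adjusted p = 0.0116) and after centring (0.95, adjusted p = 0.0413), and of the 13235 probe-sets tested between these stages 80.2% were called and 29.2% rose.

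**Figure D2:**
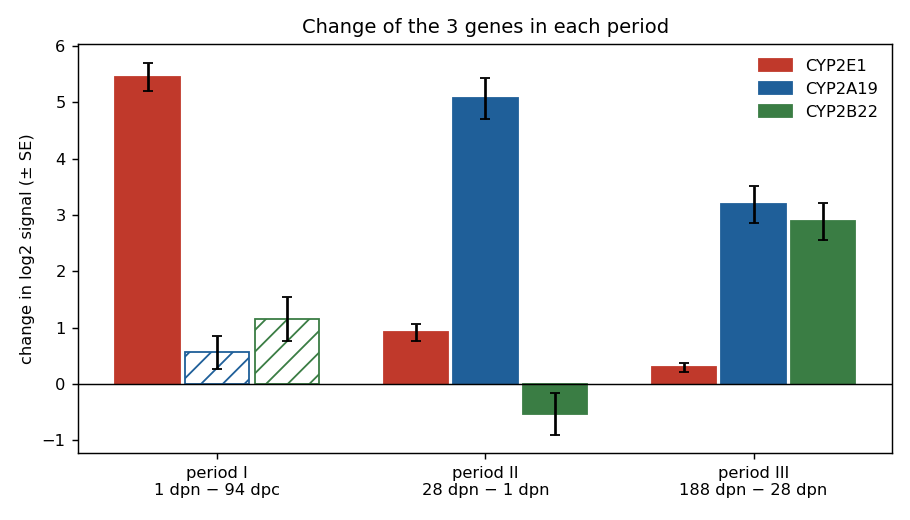
Change in log2 signal (later minus earlier stage, bars, ± SE) of CYP2E1, CYP2A19 and CYP2B22 in each period. Hatched bars are from the fit without the level filter. The rise of CYP2E1 in period I is 5.45, that of CYP2A19 is 5.07 in period II and 3.19 in period III, and that of CYP2B22 is 2.89 in period III.

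The onset was set against the later rise in 1 fit of the 4 stages, as the change of period I minus that of period III. The difference was 5.16 for CYP2E1 (SE 0.27, adjusted p = 7.02e-24), −2.63 for CYP2A19 (SE 0.45, adjusted p = 1.65e-06) and −1.74 for CYP2B22 (SE 0.52, adjusted p = 0.00457). The signed change of CYP2E1 was thus larger in period I, and that of CYP2A19 and CYP2B22 in period III. At 94 dpc CYP2A19 and CYP2B22 were above background on 12 and 7 of 16 arrays. Their period I changes, here and in the pairs below, therefore depend on the floor, and its part was not tested. CYP2E1 entered period III at 15.10, with the mean array maximum at 15.78 at 28 dpn and 15.92 at 188 dpn, and the part of that ceiling in its period III values, here and in the pairs below, was not tested. In this fit 47.1% of 13841 probe-sets were called, and the signed difference was positive for 23.4% and negative for 23.7% of all tested.

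The changes of 2 genes on the same arrays were then compared by permutation tests of the within-array difference, with p adjusted over 9 comparisons. In period I the change of CYP2E1 exceeded that of CYP2A19 by 4.89 and that of CYP2B22 by 4.30 (adjusted p = 1.5e-05 each). The permutation p before adjustment was 1e-05 for each, the smallest the permutations can give. In period II CYP2A19 rose by 4.16 more than CYP2E1 (difference −4.16 for CYP2E1 minus CYP2A19, adjusted p = 1.5e-05) and by 5.61 more than CYP2B22 (adjusted p = 1.5e-05). CYP2E1 and CYP2B22 also parted in period II, by 1.45 (adjusted p = 0.001). In period III the change of CYP2E1 was below that of CYP2A19 (−2.89) and of CYP2B22 (−2.59, adjusted p = 1.5e-05 each). CYP2A19 and CYP2B22 were not shown to differ in period I (−0.59, adjusted p = 0.22) or in period III (0.30, adjusted p = 0.51). In the RefSeq annotation of assembly Sscrofa11.1, which the array files do not name, 4 annotated genes or loci lie between CYP2A19 and CYP2B22, and CYP2E1 is on another chromosome.

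Among animals of the same stage, signals of CYP2E1 and CYP2A19 went together at 188 dpn in the deposited values (Pearson's r = 0.841, adjusted permutation p = 0.00048, Spearman's rho = 0.776, adjusted permutation p = 0.00696, n = 16). Without the 2 animals farthest from the median of CYP2E1 r was 0.786. Both signals also followed the mean of the hepatocyte markers of the array at that stage, with r = 0.897 for CYP2E1 (adjusted permutation p = 0.00024, rho = 0.856, adjusted p = 0.00084) and r = 0.891 for CYP2A19 (adjusted permutation p = 0.00024, rho = 0.871, adjusted p = 0.00048), and without the 2 farthest animals r was 0.839 and 0.805. That mean ranged between 14.92 and 15.79. After quantile normalization, which gives each array the same distribution, r between CYP2E1 and CYP2A19 was 0.0272 (permutation p = 0.91, rho = −0.0435, p = 0.87), and r of their differences to the hepatocyte mean was 0.0744 (permutation p = 0.78). The relation at 188 dpn was thus not seen in either scaling. Subtracting the hepatocyte mean also takes off whatever both genes share with those markers between animals. Whether the relation lay in the arrays or in the animals was not tested. The other 11 correlations of 2 members within a stage were not called, with adjusted permutation p of 0.677 or more for r and of 0.172 or more for rho.

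**Figure D3:**
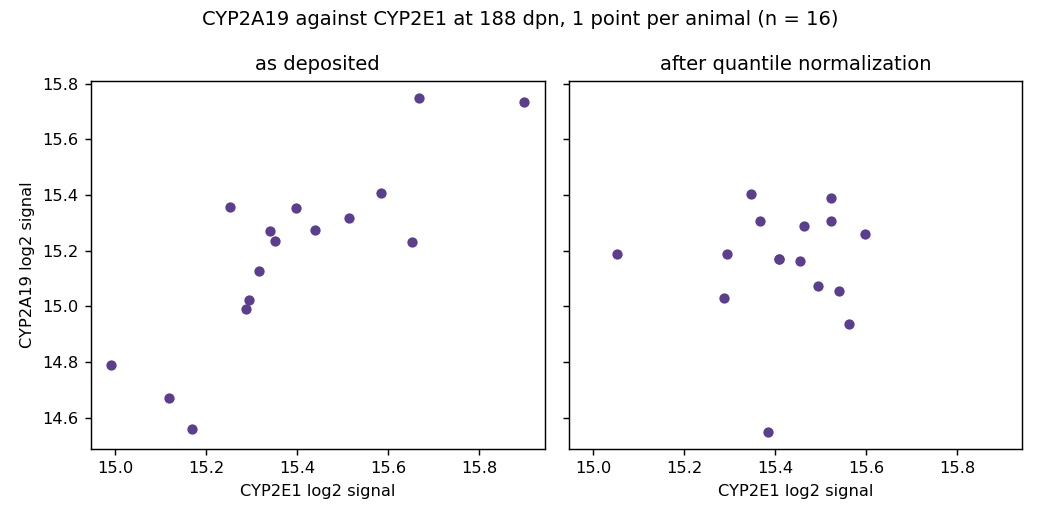
CYP2A19 against CYP2E1 log2 signal at 188 dpn, 1 point per animal (n = 16), in the deposited values on the left and after quantile normalization on the right. The points rise together on the left (r = 0.841) and not on the right (r = 0.0272).

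The spread of CYP2A19 at 28 dpn was set against the same measures. Its r with the hepatocyte mean over the 15 piglets was 0.0353 (permutation p = 0.901, rho = −0.0214) and with the 3′ minus 5′ difference 0.0133 (permutation p = 0.962, rho = 0.118), both near 0. CYP2E1 at 28 dpn did follow the hepatocyte mean (r = 0.861, adjusted permutation p = 0.00088, rho = 0.789, adjusted p = 0.00536, r = 0.616 without 2 piglets), as it did at 1 dpn (r = 0.751, adjusted permutation p = 0.00442, rho = 0.75, adjusted p = 0.00762, r = 0.736 without 2). In this family of 24 correlations CYP2A19 at 1 dpn was called by r (0.715, adjusted permutation p = 0.00442) and not by rho (0.565, adjusted p = 0.124), with r = 0.564 without 2 animals. CYP2B22 was not called with either measure at any stage.

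Over the 63 arrays, different genes ran most alike each of the 3. These correlations describe mostly the stages, which the arrays share. For CYP2E1 they were AZGP1, a secreted glycoprotein (r = 0.968), the acute phase protein CRP (0.957), the haem binder HPX (0.953), complement C4A (0.952) and the methyltransferase GNMT (0.950). CRP averaged 5.45, 11.82, 14.49 and 14.66 over the 4 stages. For CYP2A19 they were the haem synthesis enzyme ALAD (0.948), ECI1 of fatty acid oxidation (0.944), the steroid enzyme HSD3B1 (0.944), MSRA, which repairs oxidised methionine (0.940), and the folate receptor FOLR2 (0.940). For CYP2B22 they were ABHD14B (0.736), CRYL1 (0.726), KIAA1191 (0.724), the amino acid transporter subunit SLC3A1 (0.716) and SGF29 (0.704). SLC3A1 had means of 6.09, 6.41, 5.88 and 9.15, low at each of the stages before 188 dpn as CYP2B22 was. With the mean of each stage taken off, the highest r was 0.524 with complement factor CFB for CYP2E1, 0.479 with ZC3H4 for CYP2A19 and 0.498 with the integrin ITGB3 for CYP2B22, and the 3 genes had r of 0.163, 0.032 and 0.168 with each other.

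Other CYP1 to CYP4 enzymes of xenobiotics and fatty acids were followed in a fixed list, of which 12 were on the array. In period I 9 of 9 tested rose, with a median of 3.53, where 22.9% of all probe-sets rose and the median of all tested genes was −0.027. With the mean of the probe-sets of each gene 9 rose as well and the median was 1.27. CYP2C49 rose by 3.88 (SE 0.40, adjusted p = 6.01e-10), CYP2C32 by 3.74, CYP2D25 by 2.16 and CYP1A1, which oxidises polycyclic aromatic compounds, by 3.53 (SE 0.44, adjusted p = 2.91e-08). CYP2C32 and CYP3A46 were each above background on 4 of 16 fetal arrays. They passed the level filter only through 1 dpn, where they were high. The fetal means of CYP2C42, CYP1A1, CYP3A39 and CYP3A22 (6.34, 6.45, 7.15 and 7.20) also lay below the mean array median of 94 dpc, 7.38. Those of CYP2C49, CYP2D25 and CYP2C33 (8.13, 10.94 and 14.05) lay above it. How many of the 9 passed through 1 dpn alone was not counted, so no support is drawn from the count. CYP2C36, CYP2J34 and CYP3A29 passed it at neither stage and were not tested in period I. The count of 9 of 9 and its median thus depend in part on the filter. In period II 8 of 11 tested rose and none fell, with a median of 1.56 against −0.015 over all genes, and 28.8% of all probe-sets rose. In period III 6 of 11 rose and 1 fell, with a median of 0.24 against −0.083, and 12.3% of all probe-sets rose. CYP2J34 rose by 1.30 in period II and by 3.13 in period III, the largest rise of the list in that period, and CYP1A1 fell by 1.46 (SE 0.31, adjusted p = 0.000411). The CYP3A genes, the main drug oxidising P450, had their largest called rises in periods I and II, such as 4.36 and 3.68 for CYP3A39, 3.84 and 5.17 for CYP3A46 and 6.96 for CYP3A29 in period II, and CYP3A29 and CYP3A46 rose by 0.53 and 0.49 in period III.

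P450 of sterols, bile acids, steroids and vitamins were followed in another list. Of 12 on the array, 4 were tested in period I and 6 in the later ones, and 1, 3 and 2 rose while 1, 0 and 1 fell in periods I, II and III, where 22.9%, 28.8% and 12.3% of all probe-sets rose and 34%, 42.9% and 22.5% fell. With the mean of the probe-sets of each gene 0, 2 and 2 rose. Lanosterol demethylase CYP51 fell by 2.53 (SE 0.32, adjusted p = 3.58e-08) in period I and rose by 0.81 in period III. CYP27A1, a sterol hydroxylase of bile acid synthesis, rose by 0.94 and 0.71 in periods II and III. The bile acid enzyme CYP7A1 rose by 2.09 in period II (SE 0.59, adjusted p = 0.00209), with 7 of 16 arrays of 1 dpn above background. CYP26A1, which clears retinoic acid, rose by 3.67 in period II and fell by 2.11 in period III. CYP19A3, a porcine aromatase, was the 1 rise of period I (2.19, SE 0.36, adjusted p = 3.5e-06), which was not among the calls with the mean of the probe-sets.

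Electron partners pass electrons to P450 or to their redox chain. Of 7 tested in each period, 4, 1 and 3 rose in periods I, II and III, and 1 fell in period II, beside 22.9%, 28.8% and 12.3% of all probe-sets that rose. After centring 5, 5 and 4 rose. POR, the reductase that serves CYP2 enzymes, rose by 1.24 at 1 dpn against 94 dpc (SE 0.11, adjusted p = 1.89e-11), with differences of 0.10 and −0.10 that were not called in the later periods. FDX1, the ferredoxin of mitochondrial P450, rose in each period (1.22, 0.49 and 0.35), CYB5B rose by 0.84 in period I, and the haem-binding partner PGRMC1 rose by 0.67 in period III (SE 0.09, adjusted p = 3.04e-07).

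Genes of haem, the prosthetic group of P450, went both ways in period I. Of 8 tested, 3 rose and 3 fell in period I, 4 rose and 1 fell in period II, and 5 rose and none fell in period III. Over all probe-sets 22.9%, 28.8% and 12.3% rose and 34%, 42.9% and 22.5% fell, so the falls of period I lay near the share of all probe-sets. ALAS1, the rate-limiting enzyme of haem synthesis in hepatocytes, rose by 2.25 in period I (SE 0.18, adjusted p = 1.52e-12). FECH, PPOX and UROD, enzymes of later steps that red cell precursors also use, fell by 2.10, 1.20 and 0.69 there. The red cell precursor markers fell in the same period, and a link between these falls was not tested. PPOX rose by 0.55 in period II and FECH by 0.23 in period III (adjusted p = 0.00681). ALAD rose by 1.80 and 0.80 in periods II and III, and BLVRA, which reduces biliverdin, by 0.85 and 1.01. HMOX1, which breaks haem down, rose by 0.80, 0.67 and 0.36 in the 3 periods.

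Nuclear receptors and transcription factors known for P450 genes moved in both directions in periods I and II. Of 16 tested in periods I and II, 4 and 4 rose and 4 and 6 fell, and of 15 in period III 5 rose and none fell. Over all probe-sets 22.9%, 28.8% and 12.3% rose and 34%, 42.9% and 22.5% fell, so the shares of periods I and II lay near those of all probe-sets. In period I 2 fell after quantile normalization and 2 after centring. NR1I2, the receptor PXR, rose by 1.07 in period I (SE 0.17, adjusted p = 3.31e-06) and fell by 1.83 in period II (SE 0.21, adjusted p = 2.39e-09). PPARA, the receptor of fatty acids, rose by 2.29 in period I and fell by 2.21 in period II, with 2 of 16 arrays of 94 dpc and 5 of 15 of 28 dpn above background, so both sizes depend on the floor. CEBPD rose in each period (1.08, 1.42 and 0.49). HNF4A rose by 0.66 in period II, CEBPB by 0.90 in period III, and the circadian factor DBP by 1.28 and 0.60 in periods II and III after a fall of 0.33 in period I. CTNNB1, beta-catenin, fell by 1.22 in period I, and RXRA by 0.72 and 0.96 in periods I and II. NR3C1, the glucocorticoid receptor, fell by 1.13 in period II and rose by 0.59 in period III.

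Enzymes that act after P450 on skatole or that convert androstenone and related steroids rose in each period for 4, 5 and 5 of 8 tested, and 1, 1 and 0 fell, with medians of 0.53, 0.58 and 0.41 against −0.027, −0.015 and −0.083 over all genes and beside 22.9%, 28.8% and 12.3% of all probe-sets that rose. After centring 8 rose in period III and after quantile normalization 4. SULT1E1 and SULT2A1, sulfotransferases of steroids, rose by 5.45 (SE 0.54, adjusted p = 3.1e-10) and 4.68 (SE 0.25, adjusted p = 8.05e-17) in period I. SULT1E1 averaged 5.53 in fetuses, with 8 of 16 arrays above background, and 10.98 at 1 dpn. The size of its rise in period I therefore depends on the floor, and no support is drawn from its call. SULT2A1 was above background on all 16 fetal arrays. SULT1E1 fell by 1.55 in period II. SULT1A3, a phenol sulfotransferase, rose by 1.18, 0.82 and 2.04 in the 3 periods, with the largest of these in period III. HSD3B1, a hydroxysteroid dehydrogenase known in pigs for reducing androstenone, was at −0.12 and not called in period I and rose by 2.19 and 1.33 in periods II and III. HSD17B2 fell by 1.59 in period I and rose by 1.15 and 0.47 later, and UGT2B31, a glucuronosyltransferase, rose by 1.40 and 0.34 in periods I and II. AKR1C1, an aldo-keto reductase of steroids, rose by 1.29 and 0.45 in periods II and III.

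**Figure D4:**
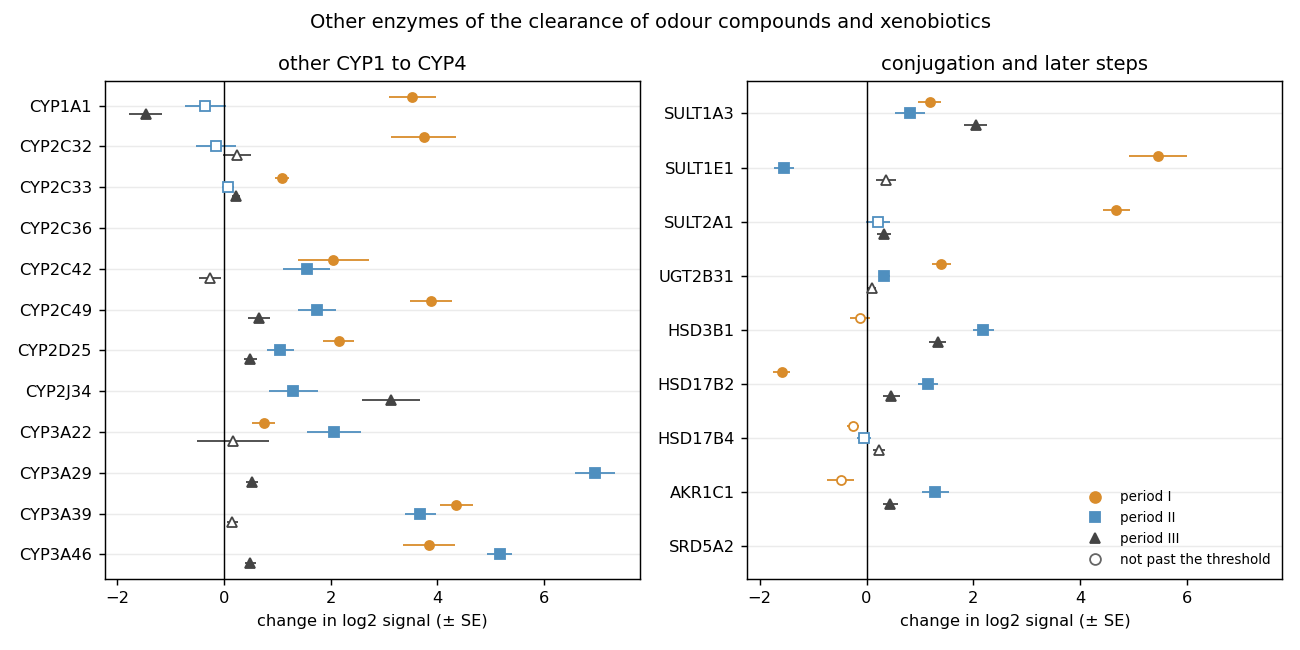
Change in log2 signal (± SE) in periods I (circles), II (squares) and III (triangles) of the other CYP1 to CYP4 genes on the left and of genes of conjugation and later steps on the right. Open symbols did not pass the threshold and a missing symbol was not tested. The rises of the CYP genes in period I reach 4.36 and in period II 6.96, and in period III CYP2J34 reaches 3.13.

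The remaining phase I and phase II enzymes included aldehyde dehydrogenases, glutathione transferases and flavin monooxygenases. Of 27 tested, 9, 15 and 21 rose and 3, 6 and 3 fell in periods I, II and III, with medians of 0.10, 0.41 and 0.47 against −0.027, −0.015 and −0.083 over all genes, and 22.9%, 28.8% and 12.3% of all probe-sets rose. After quantile normalization 9, 14 and 16 rose. GSTA1, a glutathione transferase, rose by 2.72, 1.93 and 0.30. FMO5, a flavin monooxygenase, rose by 2.24, 1.14 and 0.50. BHMT and the quinone reductase NQO1 rose by 1.60 and 1.54 in period I, MGST3 by 1.57 in period II and PAPSS2, which makes the sulfate donor, by 1.66 in period III (SE 0.16, adjusted p = 1.62e-09). The epoxide hydrolase EPHX1 fell by 0.86 in period I and rose by 1.13 and 0.87 later, and FMO1 fell by 0.63 and rose by 0.87 in periods I and III.

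CYP2E1 is known as an enzyme of pericentral hepatocytes, and the markers of that zone were read beside it. Of 6 on the array, 2 of 5 tested rose in period I, 2 of 5 rose and 1 fell in period II, and 2 of 6 rose and 1 fell in period III. Glutamine synthetase GLUL, a defining marker, rose by 0.43 in period I (adjusted p = 0.0406) and by 1.1 in period II, and fell by 1.51 in period III (SE 0.16, adjusted p = 1.19e-08), while OAT rose by 1.15 in period I and by 1.56 in period III. The mean of the 6 markers was 8.31, 9.08, 9.40 and 9.54 over the 4 stages. The rise of this mean in period I rests in part on SLC1A2, which was not tested there. SLC1A2 averaged 3.38 in fetuses, with 1 of 16 arrays above background, and 6.37 in newborns, with 10 of 16. RHBG (−0.05), GSTM3 (−0.25) and AHR (0.30) were not called in period I. The periportal list rose for 6 of 8, 3 of 9 and 6 of 9 genes, with 0, 3 and 1 falling. Beside these counts and those of the hepatocyte markers, 22.9%, 28.8% and 12.3% of all tested probe-sets rose in the 3 periods. Those that fell were 34%, 42.9% and 22.5%. Of the 16 hepatocyte markers 2 rose and 9 fell in period I, 2 rose and 7 fell in period II and none of 16 was called in period III, with medians of −0.26, −0.12 and 0.11. Their direction turned with scaling in period I, where 8 rose and 2 fell after quantile normalization. Over all probe-sets, 40.2%, 40.1% and 35.4% of the calls in the 3 periods were rises, and after quantile normalization 48.2%, 51.5% and 47.3%, and after centring 50.9%, 54.6% and 56.2%.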

How the data were processed

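The mRNA of liver from 63 HP offspring was measured on Affymetrix porcine arrays. The authors deposited log2 signals of 24123 probe-sets made with GCOS 1.1.1. The values behave as signals scaled to a trimmed mean of 500 per array, with linear signals under 1 set to 1, and no normalization between arrays beyond this was found. The log2 values were used as deposited. Groups came from the labels. Arrays have no read depth, and the number of arrays and the distance from background limit the precision.

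The 188 control probe-sets were left out, and 10069 of the others had 1 gene symbol in the platform annotation. A further 198 had several symbols and 13668 none, and such probe-sets were tested but not named. The probe-set of CYP2E1 carries the suffix for probes that several transcripts share, and that of CYP2A19 the suffix for several transcripts of 1 gene. Each comparison had a fit of its own stages by lmFit and eBayes of limma 3.58.1 (two-sided, in R 4.3.3). A probe-set entered where its signal exceeded the array median (percentile 50) in 50% or more of the animals of either stage. Pairs of genes and correlations were tested two-sided with 100000 permutations in Python 3.11.15 with numpy 2.4.6 and in R.

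The members and the gene lists were chosen with earlier results of these data known. All probe-sets of the members are named, and of each list up to 4 genes with the largest called change in a period, with a few more given beside them that were chosen after their values were seen. For each list the probe-set of the highest mean stood for a gene, and 175 of 307 list genes were on the array. Of the 5 genes most alike each member within stages only the first is named. Comparisons of 28 dpn with 94 dpc and of 188 dpn with 1 dpn, and the scalings of correlations, were added after seeing the data. Alternatives were no filter, a filter at the 75th percentile, quantile normalization, centring, a Wilcoxon rank-sum test, a mean-variance trend in eBayes, 1 fit of all stages, arrayWeights, the 3′ minus 5′ difference as a covariate and leaving out arrays. The procedure was tested on simulated data.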

Additional observations from a re-analysis of the deposited data

How the results depend on the processing

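Leaving out each array in turn changed no call of a CYP2 gene in the 3 periods, at 188 dpn against 94 dpc or for period I minus period III. It was not run for 28 dpn against 94 dpc and 188 dpn against 1 dpn. The change of CYP2E1 then ranged between 5.37 and 5.57 in period I, 0.86 and 0.99 in period II and 0.26 and 0.34 in period III, that of CYP2A19 between 0.35 and 0.64, 4.95 and 5.28, and 2.99 and 3.32, and that of CYP2B22 between 1.01 and 1.29, −0.65 and −0.38, and 2.73 and 2.99. Among the other alternatives, a few results changed side of the threshold or direction. CYP2A19 in period I was called after quantile normalization (0.75). CYP2E1 in period III was not called with all 63 arrays in 1 fit (0.30, SE 0.19), where the spread was shared with the more variable earlier stages. Limited to arrays with both genes above background, CYP2A19 minus CYP2B22 was 0.17 in period I (adjusted p = 0.69), opposite to −0.59 and called in neither case, and 1.00 in period III (adjusted p = 0.017), against 0.30. This limit leaves out the 28 dpn arrays with the lowest CYP2B22 and so lowers its rise by construction, and nothing is read from it. The values of CYP2B22 at 28 dpn against 94 dpc that were called stand in the report. The correlation of CYP2E1 and CYP2A19 at 188 dpn was 0.0272 after quantile normalization, 0.0744 for differences to the hepatocyte mean and 0.211 for residuals on it. The filter at the 75th percentile, which tests fewer probe-sets, left 4472 and 5321 called in periods I and II, against 7309 and 9375. The alternative of another probe-set of the same gene could not be run, as each gene has 1. No paired analysis was possible because the labels give no replicate number that stages share.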
